A study of Mus musculus with 6 samples.

Results

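The comparison described here is that of RE cells with M cells of EpH4, an immortalized mouse mammary epithelial cell line, across all genes measured. M cells had been cultured for 7 days with TGFβ1, and RE cells had been given the same 7 days with TGFβ1 and then 4 days in medium without it, so that both groups had been exposed to the growth factor. The members are the 4 libraries labelled M or RE, 2 per group and described as biological replicates, out of the 6 libraries of the study. The other 2 come from E cells, which were never treated, and their levels are set beside the others for scale. The E libraries also enter the normalization, the coverage filter and the spread behind the calls. All stages grew in the same medium with serum, antibiotics and insulin, and the amount of TGFβ1 added is not given in the sources used here. The design limits what the contrast covers. All libraries come from 1 cell line, and no library comes from M cells kept on TGFβ1 for the additional 4 days, so that withdrawal and the longer time in culture cannot be told apart. Of the 17428 genes in the deposited table, 13893 had enough coverage to be tested.

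TGFβ1 binds a pair of receptor kinases that phosphorylate Smad2 and Smad3, which enter the nucleus with Smad4 and change the transcription of their target genes. In mammary epithelium the pathway is best known for driving the epithelial-mesenchymal transition (EMT), in which cells loosen their junctions, build stress fibres and lay down and cut extracellular matrix. The opposite change, the mesenchymal-epithelial transition (MET), can follow when the ligand is removed.

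The libraries held between 35782513 and 47928557 reads' worth of coverage, and levels are given as normalized coverage in ppm, that is, the bases over a gene as ppm of all bases of the library, after TMM scaling. The authors did not scale these values by gene length, so that a level is compared only with the level of the same gene in other libraries. Where a gene is said to rise or fall from a pair of levels to another pair, these are M 1 and M 2 and then RE 1 and RE 2. Replicates of M and RE cells were close, with log2 differences between replicates that had an SD over genes of 0.318 for M and 0.309 for RE, against 0.558 for E. Epithelial markers were present in all 4 libraries. *Cdh1* (E-cadherin), *Tacstd1* (the older symbol of the Epcam gene), *Krt8*, *Krt18* and *Krt14* were tested and well detected, as was *Krt5*, while *Krt19* did not reach the filter. The leukocyte markers *Ptprc*, *Cd3e*, *Itgam* and *Emr1* did not reach it either, but *Csf1r*, *Cd14* and *Cd68* of the same list did.

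Withdrawal of TGFβ1 was accompanied by a broad change in the transcriptome, in which more genes were called higher than lower in RE cells. A gene was called a DEG when its log2 fold change, RE minus M, exceeded 1 in either direction and its Benjamini-Hochberg adjusted p from limma was under 0.01. Of the genes tested, 1789 (12.9%) were called, 1123 higher in RE cells (8.08%) and 666 lower (4.79%). These percentages are the background for the counts of gene lists given below. With coverage scaled to library totals alone the median log2 fold change moved from −0.02 to 0.18 and the split to 1405 higher and 500 lower, so that 73.8% in place of 62.8% of the called genes were higher in RE cells. The median called rise was 1.92 and the median called fall was −1.89 on the log2 scale, and 242 rises and 125 falls went beyond 3. Both RE libraries were above both M libraries for 37.9% of the genes tested and below both for 40.2%, without any test, so that separation of the 4 libraries is common and is not by itself a call. Since 2 against 2 libraries cannot reach 0.05 in an exact permutation test, the calls rest on the spread that limma pools across genes. Without 1 of the M or RE libraries, where the lone library left is assumed to vary like the other groups, the number of called genes dropped to between 683 and 816. Calls of named genes lost in such a fit or under another setting are given at the end of each account, with the log2 fold change there. The count moved the other way for E, since without 1 of the E libraries it rose to 2315 and 2322. In bulk RNA, fewer cells that express a gene and less of its RNA in each cell cannot be told apart, and this holds for every difference that follows.

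**Figure D1:**
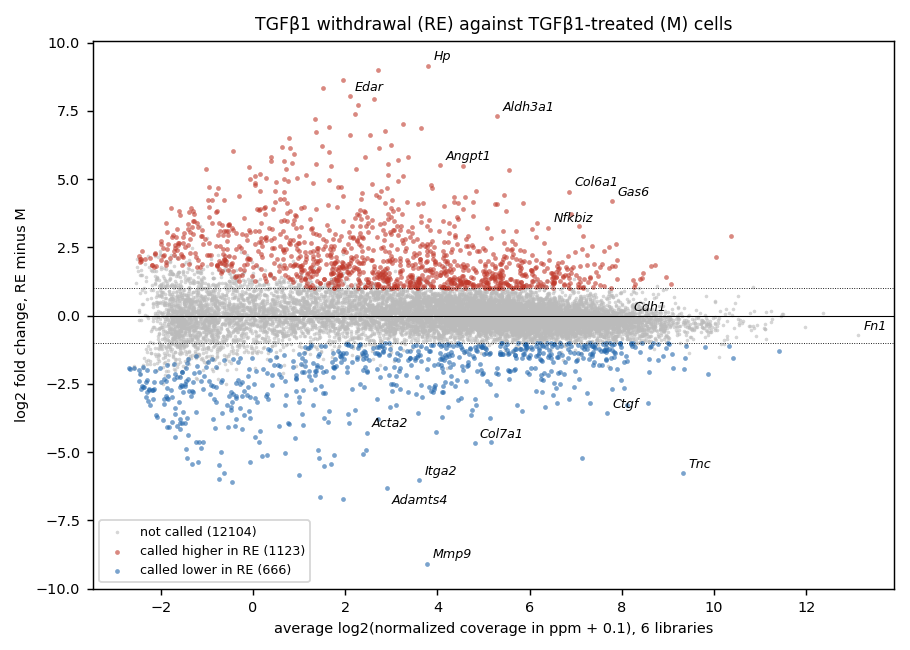
Each point is 1 of the 13893 genes tested, with the average log2(normalized coverage in ppm + 0.1) over the 6 libraries on the x axis and the log2 fold change, RE minus M, on the y axis. The 1123 genes called higher are red, the 666 called lower are blue, dotted lines mark a log2 fold change of 1 in either direction, and labelled genes include *Hp* at 9.16, *Mmp9* at −9.09, *Fn1* at −0.72 and *Cdh1* at −0.02.

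The largest rise among genes of substantial coverage was that of *Hp*, which encodes haptoglobin, the plasma protein that binds free haemoglobin. *Hp* was at 0.0671 and 0.200 ppm in the M libraries and at 153 and 107 ppm in the RE libraries, a log2 fold change of 9.16 (SE 0.50, limma adjusted p = 2.43e-05). *Edar*, the ectodysplasin receptor of hair, tooth and gland placodes, was at 0.0733 and 0.0985 ppm in M and 55.6 and 42.2 ppm in RE. The M libraries held only a few reads of each of these genes, and no M library came near an RE library. *Mgp*, the matrix Gla protein that restrains calcification, rose from 0.116 and 0.116 to 52.9 and 39.5 ppm, and *Ly6d*, a GPI-anchored surface protein, from 0.123 and 0.0995 to 41.8 and 29.2 ppm. *Aldh3a1*, an aldehyde dehydrogenase abundant in cornea, rose from 2.14 and 2.13 to 319 and 387 ppm. The neutral endopeptidase *Mme* (CD10) rose from 1.13 and 0.607 to 126 and 92.8 ppm, a log2 fold change of 6.86, and the pseudokinase gene *Trib2* rose by 6.77. The list was completed by *Pkhd1l1* (7.01), the noradrenaline transporter *Slc6a2* (6.63), the PAR bZIP factor *Hlf* (6.62) and the unnamed gene *C130090K23Rik*, which was at or under the floor of 3 reads' worth in both M libraries and at least 541-fold higher. The smallest adjusted p-values among rises added *Angpt1* (angiopoietin 1, log2 fold change 5.51, limma adjusted p = 7.05e-06), *Prelp* (a leucine-rich matrix proteoglycan, 6.89) and *Rassf4*, which was at least 661-fold higher in RE cells. Every gene in this paragraph was called in each alternative fit that could be made, including those without 1 library.

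The largest fall was that of *Mmp9*, which encodes gelatinase B, a protease that degrades basement membrane collagen. *Mmp9* was at 966 and 866 ppm in the M libraries and at 1.26 and 1.98 ppm in the RE libraries, a log2 fold change of −9.09 (SE 0.23, limma adjusted p = 3.70e-06). *Adamts4*, an aggrecanase, was at 190.1 and 173 ppm in M and 2.16 and 2.18 ppm in RE, and *Itga2*, the α2 subunit of a collagen-binding integrin, was at 181 and 214 ppm in M and 2.78 and 3.08 ppm in RE. In RE cells all 3 genes were at single-digit ppm, as they were in the E libraries, which held 1.42 and 1.74 ppm of *Mmp9*, 0.652 and 1.24 ppm of *Adamts4* and 1.69 and 4.94 ppm of *Itga2*. *Tnc* encodes tenascin C, a hexameric matrix glycoprotein of wounds and tumour stroma, and it was among the most heavily covered genes of the M libraries. It fell from 13039.7 and 13407 ppm to 223 and 264 ppm, a log2 fold change of −5.77 (SE 0.29), and still held more coverage in each RE library than in either E library (58.7 and 115 ppm). *Hsd11b2*, which inactivates glucocorticoids, fell by 5.06 on the log2 scale. The remaining large falls were those of *Siglecg* (−4.93), *Col7a1* (−4.67), the acyl-CoA synthetase *Acsbg1* (−4.62), smooth muscle actin *Acta2* (−4.29), the cadherin *Cdh10* (−4.27) and *Csf1r* (−3.93), and the smallest adjusted p-values added *Col5a3* (−6.71, limma adjusted p = 9.84e-06) and cardiac troponin T *Tnnt2* (−3.49). *Csf1r* encodes the macrophage colony-stimulating factor receptor and was at 25.8 and 29.9 ppm in M and 2.08 and 1.45 ppm in RE. The leukocyte markers *Ptprc*, *Cd3e*, *Itgam* and *Emr1* stayed under the filter, while *Cd14* and *Cd68* of the same list passed it and were not called.

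**Figure D2:**
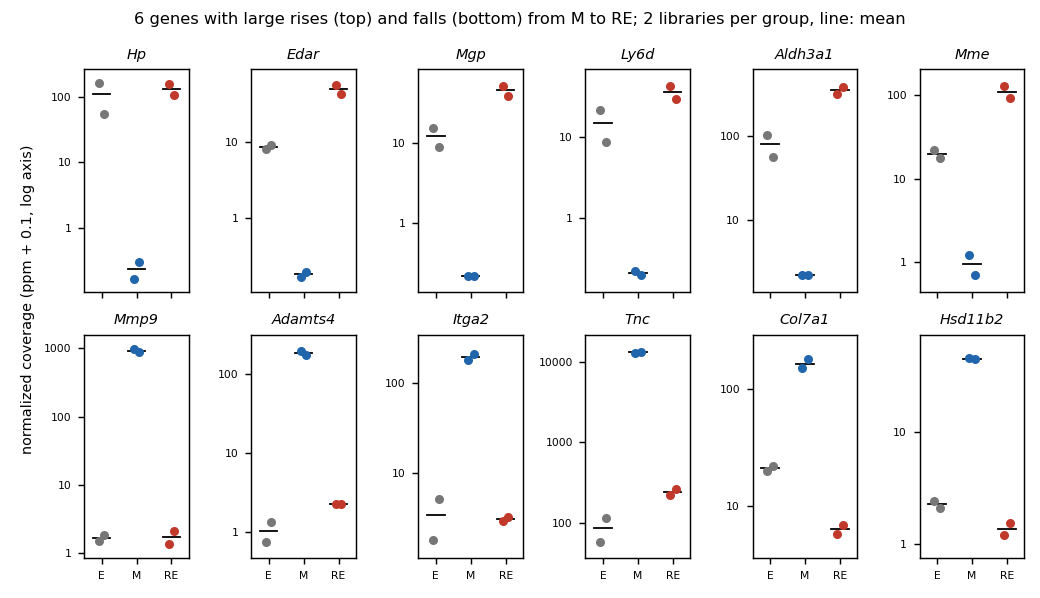
Normalized coverage (ppm + 0.1, log axis, a separate scale in each panel) of 6 genes with large rises, top row, and 6 with large falls, bottom row, in the 2 E, 2 M and 2 RE libraries, with each point 1 library and each line a group mean. In each panel both RE libraries lie apart from both M libraries, with *Hp* at 0.0671 and 0.200 ppm in M and 153 and 107 ppm in RE, and *Mmp9* at 966 and 866 ppm in M and 1.26 and 1.98 ppm in RE.

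Across 32 lists of pathway and structural genes, 872 of 992 listed genes were tested and 265 were called, 145 higher and 120 lower. Members that did not reach the coverage filter have no value. The filter counts all 6 libraries, so that a gene low in M or RE enters through its level in other libraries, those of E included. The lists with the highest medians were acute phase and mucosal defence (1.98) and drug and aldehyde metabolism (1.74), and those with the lowest were mammary keratins (−1.32) and matrix proteases (−1.12), against a median of −0.02 over all genes tested. With members at the floor set at their bounds, the median of the acute phase list became 2.15 and the medians of the other 31 lists did not move. Without 1 of the M or RE libraries the list members called dropped to between 147 and 165.

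**Figure D3:**
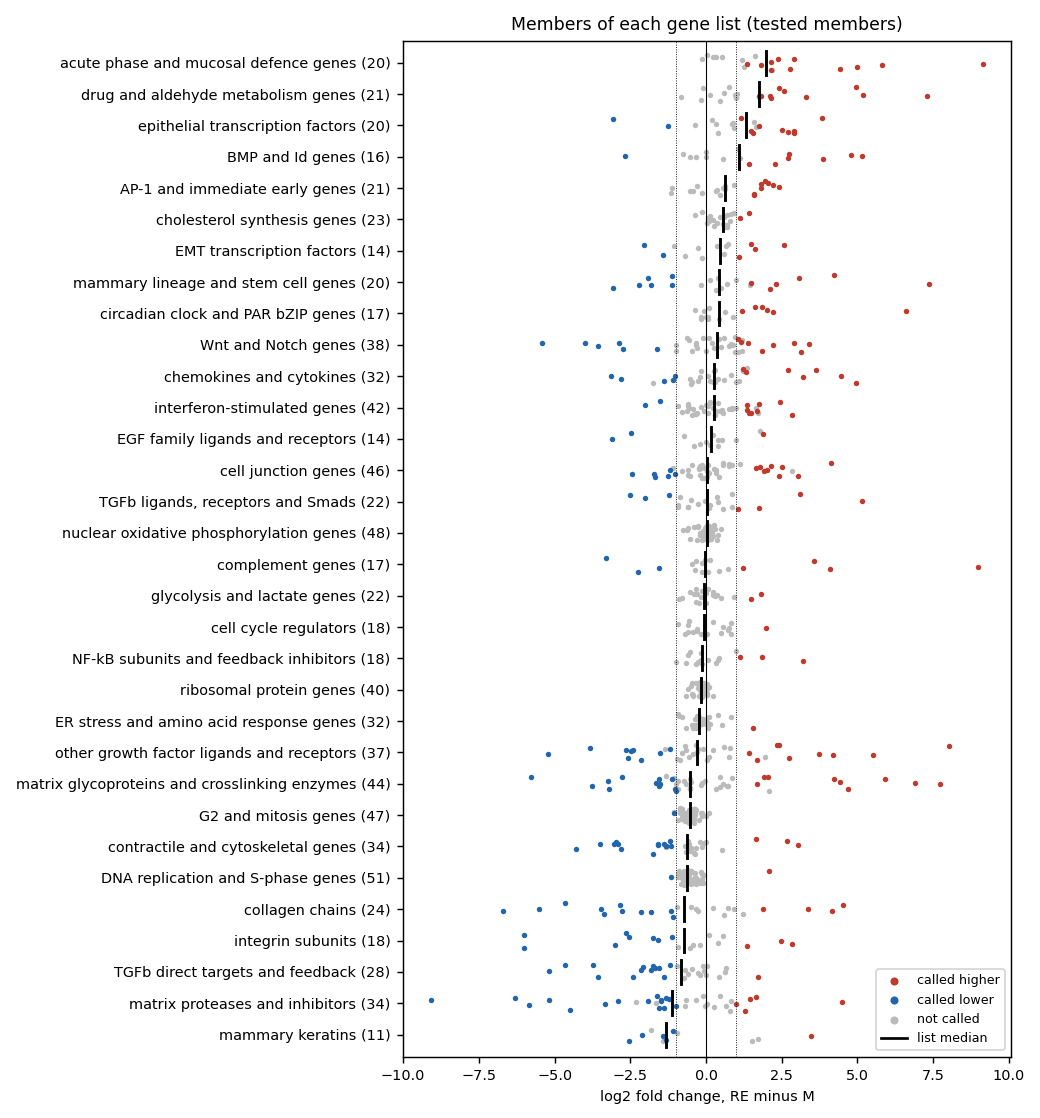
Log2 fold change, RE minus M, of every tested member of the 32 gene lists, ordered by the list median (black bar), with the number tested in parentheses. Red points were called higher, blue points lower and grey points not called, and dotted lines mark 1 in either direction. Medians range from −1.32 for mammary keratins to 1.98 for acute phase genes, and nuclear oxidative phosphorylation and ribosomal protein genes have no called member.

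Targets of TGFβ signalling were called lower more often than higher after withdrawal, and the ligands and receptors themselves moved in both directions. Of 28 tested targets and feedback genes, 13 were called lower and 1 higher, with a median of −0.84. Beside *Col7a1*, *Tgfbi*, a matrix protein named for its induction by TGFβ, fell from 4.57 and 4.91 to 0.233 and 0.296 ppm, and *Ctgf*, the connective tissue growth factor, fell from 791 and 738 to 64.9 and 63.0 ppm (log2 fold change −3.58, limma adjusted p = 1.26e-05). Some of the genes that restrain the pathway from inside the cell were called lower too. *Smad7*, an inhibitory Smad, was at 38.1 and 45.6 ppm in M and 13.8 and 18.0 ppm in RE (−1.40). The co-repressor *Skil* (SnoN) fell by 1.54 and the membrane adaptor *Pmepa1* fell by 1.70. Others were not called, among them *Smad6* (0.65), *Ski* (−0.12), *Smurf1* (−0.71) and *Smurf2* (−0.97). *Nox4*, *Itgb6*, *Ptgs2*, *Vegfa*, *Pdgfb* and *Angptl4* completed the falls, between −2.40 for *Pdgfb* and −1.18 for *Angptl4*. *Lefty1*, an extracellular inhibitor of Nodal, was the member called higher (1.71). Several targets that respond early to the ligand were not called, among them *Snai1* (−0.26), *Klf10* (0.44), *Tgif1* (0.01) and *Cyr61* (−0.59). *Skil* (−1.56 to −1.52), *Itgb6* (−1.88 to −1.65), *Angptl4* (−1.26 to −1.11) and *Lefty1* (1.52 to 1.90) were not called when any 1 of the 4 M and RE libraries was left out. *Smad7* without M 1, M 2 or RE 1 (−1.53 to −1.21) was not called either. *Angptl4* (−0.98) with library totals, *Lefty1* (1.71) without a filter, *Lefty1* (1.99) with a pseudocount of 0.025 and *Lefty1* (0.67) with a pseudocount of 1 lost the call as well.

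Of 22 ligands, receptors, latent binding proteins and Smads, 4 were called higher and 3 lower. *Fst*, encoding follistatin, which binds and neutralizes activin, rose most, from 0.503 and 0.713 to 25.4 and 23.9 ppm, and *Inhba*, which encodes the βA subunit of activin itself, fell from 96.1 and 116 to 25 and 27.5 ppm. The ligand *Tgfb3* rose by 1.73, the co-receptor *Tgfbr3* (betaglycan) by 3.11 and the type II receptor *Tgfbr2* by 1.04. The type I receptor *Acvrl1* (ALK1) and the latent binding protein *Ltbp2* fell (−2.5 and −1.23). *Tgfb1*, the ligand that had been withdrawn from the medium, was at 49.5 and 48.1 ppm in M and 26.3 and 25.2 ppm in RE and was not called (−0.92, limma adjusted p = 0.00285), nor were *Tgfbr1* (0.13), *Smad2* (−0.27), *Smad3* (0.86) or *Smad4* (−0.49). *Tgfbr2* (1.0 to 1.09) and *Ltbp2* (−1.35 to −1.11) were not called when any 1 of the 4 M and RE libraries was left out. *Inhba* without M 2 or RE 1 (−1.94 to −1.87) and *Acvrl1* without RE 1 or RE 2 (−2.86 to −2.14) were not called either. *Acvrl1* (−0.97) with a pseudocount of 1, *Ltbp2* (−1.03) with library totals and *Ltbp2* (−1.23) without a filter lost the call as well.

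BMPs are the other arm of the superfamily, signal through Smad1 and Smad5 and induce the Id genes, which encode inhibitors of basic helix-loop-helix factors. Of 16 tested members of this list, 7 were called higher and 1 lower, with a median of 1.09. The ligand *Bmp4* was at 1.75 and 1.26 ppm in M and 47.0 and 41.1 ppm in RE. *Bmp6* rose by 2.29, a size that depends on the pseudocount. *Id4* rose from 0.0719 and 0.252 to 2.28 and 5.22 ppm, *Id2* from 5.88 and 6.76 to 41.3 and 44.2 ppm and *Id3* from 13.9 and 18.0 to 40.4 and 44.0 ppm, while *Id1* was not called (0.57). These 3 Id genes and both ligands were higher in each RE library than in each M library. The BMP antagonists *Fst* and *Chrd* (chordin, 2.69) were called higher as well. *Bmp1*, which is a procollagen protease despite its name and is no ligand, fell by 2.68. The receptors *Bmpr1a* (−0.01) and *Bmpr2* (−0.74) and the transducers *Smad1* (−0.01) and *Smad5* (−0.52) were not called. *Bmp6* without M 1 or M 2 (2.29) and *Id3* without M 1, RE 1 or RE 2 (1.22 to 1.47) were not called. *Bmp6* (0.48) with a pseudocount of 1 lost the call as well.

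Many transcription factors that maintain epithelial identity were higher in RE cells, while the EMT factors *Zeb1*, *Zeb2*, *Snai1*, *Snai2* and *Twist1* were not called. Of 20 tested epithelial factors, 9 were called higher and 2 lower, with a median of 1.31. All 3 grainyhead-like genes, which encode activators of junction genes, were higher. *Grhl1* rose from 1.29 and 1.48 to 24.2 and 18.1 ppm (log2 fold change 3.82, limma adjusted p = 2.09e-05), *Grhl3* from 0.992 and 1.86 to 11.8 and 9.87 ppm and *Grhl2* by 1.55. *Klf4*, a Krüppel-like factor of differentiating epithelium, rose from 18.1 and 20.0 to 138 and 145 ppm, and *Ovol1*, a zinc-finger repressor of mesenchymal genes, from 1.10 and 2.00 to 10.3 and 10.5 ppm. The Ets factor *Elf3* rose by 2.49, the basal factor *Trp63* by 1.74, *Cebpb* by 1.49 and *Klf5* by 1.14. Against this, *Elf5*, the Ets factor of alveolar luminal cells, fell from 2.90 and 2.88 to 0.176 and 0.367 ppm and *Runx1* fell by 1.25. The epithelial splicing regulators, listed under their older symbols *Rbm35a* (0.39) and *Rbm35b* (0.92), were not called. *Grhl2* (1.5 to 1.61), *Klf5* (1.13 to 1.16) and *Cebpb* (1.26 to 1.72) were not called when any 1 of the 4 M and RE libraries was left out. *Trp63* without RE 1 (1.67), *Elf5* without M 1 or M 2 (−3.06 to −3.05) and *Runx1* without M 1, M 2 or RE 1 (−1.26 to −1.11) were not called either.

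Among 14 EMT factors, 4 were called higher and 2 lower. *Zeb2* was at 135 and 121 ppm in M and 81.8 and 74.8 ppm in RE (log2 fold change −0.71, limma adjusted p = 0.047), and *Zeb1* was at 50.2 and 44.0 ppm in M and 43.5 and 42.9 ppm in RE. *Snai1*, encoding Snail, was at 24.3 and 21.3 ppm in M and 18.3 and 19.5 ppm in RE. The RE libraries lay below the M libraries for these 3 genes, but by less than the log2 fold change of 1 that a call requires, and all were well above the E libraries, which held 10.9 and 17.7 ppm of *Zeb2*, 3.52 and 6.11 ppm of *Zeb1* and 7.85 and 5.11 ppm of *Snai1*. *Twist1* was at 2.69 and 3.05 ppm in M and 4.57 and 4.98 ppm in RE and was not called (0.72), and *Snai2*, encoding Slug, was not called (0.37). The members that rose were *Foxc1* (2.56), *Prrx1* (1.62), *Sox9* (1.47) and *Tcf4* (1.09), which are also used by some epithelial or mesenchymal progenitors. The chromatin protein *Hmga2* fell by 2.06 and *Tead2*, a DNA-binding partner of YAP, fell by 1.43. *Tcf4* (1.06 to 1.12) was not called when any 1 of the 4 M and RE libraries was left out. *Foxc1* without M 2, RE 1 or RE 2 (2.47 to 2.63), *Prrx1* without RE 1 (1.58) and *Hmga2* without M 1, M 2 or RE 1 (−2.14 to −1.54) were not called either. *Tcf4* (1.11) with median-of-ratios factors, *Tcf4* (1.09) without a filter, *Tcf4* (1.09) with the minimum in every library, *Tcf4* (1.09) with a pseudocount of 0.025 and *Tcf4* (1.08) with a pseudocount of 1 lost the call as well.

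**Figure D4:**
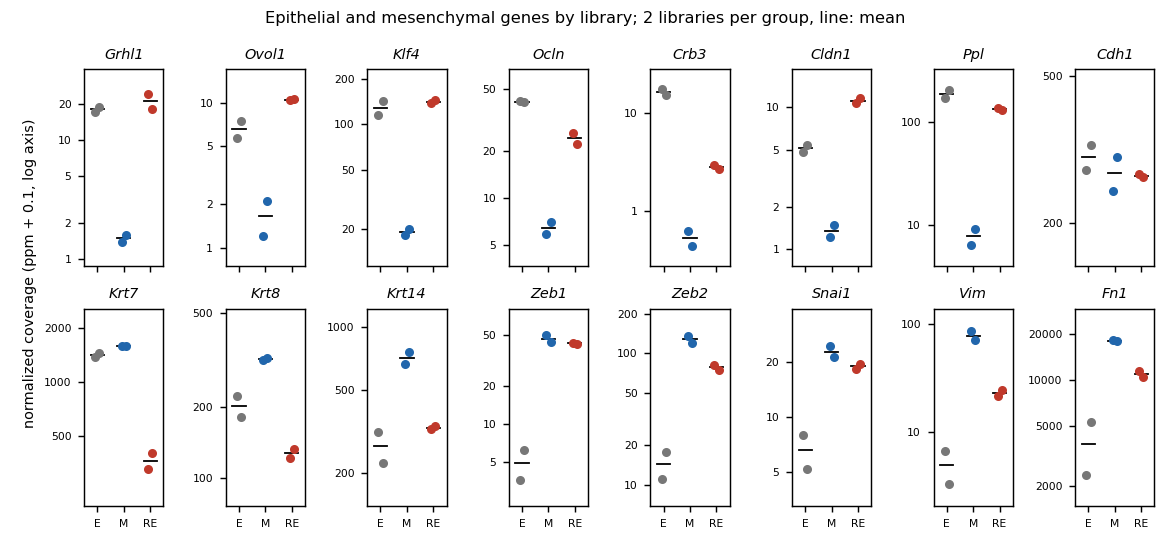
Normalized coverage (ppm + 0.1, log axis, a separate scale in each panel) of 16 epithelial and mesenchymal genes in the 2 E, 2 M and 2 RE libraries, with each point 1 library and each line a group mean. *Grhl1*, *Ovol1*, *Klf4*, *Ocln*, *Crb3*, *Cldn1* and *Ppl* are higher in RE than in M, *Krt7*, *Krt8*, *Krt14* and *Vim* are lower, and *Cdh1*, *Zeb1*, *Zeb2*, *Snai1* and *Fn1* were not called, with log2 fold changes from −0.72 for *Fn1* to −0.02 for *Cdh1*.

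Junction genes were split. Of 46 tested, 9 were called higher and 6 lower, and the median was 0.04. The rises were in tight junction, polarity and cornified-envelope genes. *Ocln*, encoding the tight junction protein occludin, was at 5.73 and 6.93 ppm in M and 26.0 and 22.2 ppm in RE (log2 fold change 1.91, SE 0.17, limma adjusted p = 1.61e-04), still below the E libraries at 41.5 and 40.9 ppm. *Cldn1*, encoding claudin 1, rose from 1.12 and 1.38 to 10.6 and 11.4 ppm, above the E libraries at 4.78 and 5.36 ppm. *Crb3*, an apical polarity protein of the Crumbs complex, rose from 0.523 and 0.335 to 2.81 and 2.57 ppm, and *Ppl*, encoding periplakin, from 6.25 and 9.09 to 137 and 131 ppm. *Marveld3* (2.5), *Tjp3* (ZO-3, 2.15), the small GTPase *Rab25* (2.01) and the channel-activating protease *Prss8* (1.80) also rose. The falls were in gap junction and desmosome genes, with the connexin *Gjb2* (−2.43), the plakophilins *Pkp1* (−1.68) and *Pkp2* (−1.71), desmoglein *Dsg2* (−1.18) and plakoglobin *Jup* (−1.03). *Cdh1* was at 244 and 303 ppm in M and 271 and 266 ppm in RE, with the RE libraries inside the range of the M libraries (log2 fold change −0.02, 95% confidence interval −0.38 to 0.35, limma adjusted p = 0.943). N-cadherin, *Cdh2*, fell from 12.9 and 12.8 to 5.56 and 5.87 ppm (−1.16). *Mgat3*, which adds the bisecting N-acetylglucosamine to N-glycans, rose from 2.76 and 1.6 to 48.3 and 41.4 ppm (4.34). *Tjp3* (1.89 to 2.41), *Pkp1* (−1.72 to −1.64), *Dsg2* (−1.30 to −1.06), *Jup* (−1.05 to −1.0) and *Cdh2* (−1.19 to −1.12) were not called when any 1 of the 4 M and RE libraries was left out. *Prss8* without RE 1 (1.75) was not called either. *Tjp3* (0.73) with a pseudocount of 1, *Dsg2* (−0.97), *Jup* (−0.82) and *Cdh2* (−0.95) with library totals and *Dsg2* (−1.18) and *Cdh2* (−1.16) without a filter lost the call as well.

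The promoters of *Crb3* and *Grhl3*, called higher here, are shown because each holds more than 1 copy of CACCTG, the E-box letters that Snail and Zeb proteins are known to bind. Of the 300-base promoters in the RefSeq table (250 bases before and 50 after the annotated start), 20.0% held CACCTG on either strand, and the 2 below were picked for holding it. Capitals mark the motif, read as CACCTG or as its reverse complement CAGGTG. *Crb3* has 4 copies, at chr17:57061951-57062250 on the plus strand of GRCm38.p6, and *Grhl3* has 2, at chr4:135573583-135573882 on the minus strand. The reads were mapped to the older build NCBI-m37, whose coordinates differ.
Crb3: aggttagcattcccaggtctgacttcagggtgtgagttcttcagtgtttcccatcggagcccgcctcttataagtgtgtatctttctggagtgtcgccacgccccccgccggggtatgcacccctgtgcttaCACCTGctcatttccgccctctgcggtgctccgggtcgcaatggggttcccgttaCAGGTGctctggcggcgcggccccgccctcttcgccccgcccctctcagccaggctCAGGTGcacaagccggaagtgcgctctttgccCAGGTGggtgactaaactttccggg
Grhl3: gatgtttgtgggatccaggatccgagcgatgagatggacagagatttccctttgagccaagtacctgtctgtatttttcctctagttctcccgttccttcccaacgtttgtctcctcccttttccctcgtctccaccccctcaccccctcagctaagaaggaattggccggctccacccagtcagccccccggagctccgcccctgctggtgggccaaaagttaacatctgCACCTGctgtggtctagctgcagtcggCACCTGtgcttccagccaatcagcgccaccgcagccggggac
These matches are letters in a window and were not measured as binding.

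Keratin genes were lower on balance, including those of simple epithelium. Of 11 tested, 5 were called lower and 1 higher, with a median of −1.32. *Krt7*, a keratin of simple epithelium, fell from 1586 and 1583 to 328 and 404 ppm, and *Krt8*, the luminal partner of *Krt18*, from 315 and 323 to 122 and 133 ppm (log2 fold changes −2.12 and −1.32). Both RE libraries were also below both E libraries for these genes, which held 1372 and 1446 ppm of *Krt7* and 223 and 181 ppm of *Krt8*. *Krt18* was not called (−0.97, limma adjusted p = 0.00821). *Krt17*, a keratin of injured and basal epithelium, fell by 2.53, *Krt14* of basal cells (−1.10) and *Krt80* (−1.42) fell too, and *Krt15*, a basal progenitor keratin, was the member that rose. It was under the floor in both M libraries (0 and 0.0243 ppm) and at 1.23 and 1.04 ppm in RE, at least 15.6-fold higher. *Krt5*, the partner of *Krt14*, was not called (1.52). Type I keratins are similar in sequence. The authors' methods speak of unique reads, without saying how reads shared between gene copies were treated. *Krt14* (−1.19 to −1.01) and *Krt80* (−1.44 to −1.40) were not called when any 1 of the 4 M and RE libraries was left out. *Krt8* without M 1, M 2 or RE 1 (−1.34 to −1.26), *Krt17* without M 1, M 2 or RE 2 (−2.64 to −2.21) and *Krt15* without RE 1 (3.36) were not called either. *Krt14* (−0.90) with library totals lost the call as well.

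More contractile and actin-binding genes were called lower than higher in RE cells. Of 34 tested, 14 were called lower and 3 higher, with a median of −0.63. *Acta2*, the smooth muscle actin of myofibroblasts and myoepithelium, was at 75.6 and 82.7 ppm in M and 4.04 and 3.83 ppm in RE, and the myosin light chain *Myl9* was at 5.03 and 7.04 ppm in M and 0.872 and 0.469 ppm in RE (−3.03). Cardiac troponin T *Tnnt2* fell from 232 and 216 to 19.1 and 20.7 ppm, and *Actg2*, near-identical in coding sequence to *Acta2*, fell by 2.96. The sarcomeric adaptor *Ldb3* (−2.89) and *Csrp2* (−2.81) fell as well. Smaller falls were those of the stress-fibre proteins filamin *Flna* (−1.31), α-actinin *Actn1* (−1.14) and tropomyosins *Tpm1* (−1.18) and *Tpm4* (−1.37). The intermediate filament gene *Vim*, encoding vimentin, fell from 86.4 and 70.9 to 21.6 and 24.3 ppm (−1.77, limma adjusted p = 0.00452), still above the E libraries at 6.52 and 3.16 ppm. Moving the other way, *Mylk*, the myosin light chain kinase, rose from 8.99 and 12.1 to 96.4 and 77.5 ppm and calponin *Cnn1* from 0.201 and 0.171 to 1.65 and 1.79 ppm, and *S100a4* rose by 1.64. *Tagln*, the transgelin gene often used beside *Acta2*, was not called (−0.38), and neither was *Srf*, encoding the serum response factor (−0.12). *Flna* (−1.31 to −1.30), *Actn1* (−1.18 to −1.11), *Vim* (−1.91 to −1.62) and *S100a4* (1.56 to 1.72) were not called when any 1 of the 4 M and RE libraries was left out. *Myl9* without M 1, M 2 or RE 2 (−3.26 to −2.64), *Actg2* without M 1, M 2 or RE 2 (−3.06 to −2.86), *Tpm1* without M 1, RE 1 or RE 2 (−1.24 to −1.12) and *Cnn1* without M 1 or M 2 (2.59 to 2.75) were not called either. *Flna* (−1.29) with median-of-ratios factors, *Flna* (−1.10), *Actn1* (−0.94) and *Tpm1* (−0.97) with library totals, *Flna* (−1.31) without a filter and *Flna* (−1.31) with a pseudocount of 1 lost the call as well.

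Collagen chains were called in both directions, also within a type. Of 24 tested chains, 11 were called lower and 4 higher, with a median of −0.73. The 3 chains of type V collagen, which nucleates fibrils, were all lower. *Col5a3* was at 123 and 119 ppm in M and 1.0 and 1.11 ppm in RE, *Col5a1* fell from 12.1 and 14.0 to 1.83 and 1.63 ppm and *Col5a2* from 5.75 and 7.60 to 0.577 and 1.33 ppm. *Col7a1*, the chain of the anchoring fibrils beneath epithelia, fell from 149 and 177 to 5.74 and 6.87 ppm (log2 fold change −4.67, limma adjusted p = 9.84e-06), and *Col27a1*, a cartilage collagen, fell by 5.50. Type IV collagen is a collagen of basement membranes, and its tested chains were called in both directions. *Col4a3* and *Col4a4* fell (−3.47 and −3.36), while *Col4a5* and *Col4a6*, which neighbour each other head to head on the X chromosome, rose by 1.88 and 3.37. *Col4a1* and *Col4a2* did not reach the coverage filter and have no value. Type VI collagen forms beaded filaments next to basement membranes, and its chains *Col6a1* and *Col6a2* rose from 25.2 and 19.2 to 600.1 and 436 ppm and from 2.78 and 1.19 to 44.5 and 27.0 ppm, while *Col6a3* was not called (−0.50). *Col1a1* was called lower (−1.08), but its partner *Col1a2* (−0.26) and *Col3a1* (0.23) were not. *Col1a1* (−1.29 to −0.86) was not called when any 1 of the 4 M and RE libraries was left out. *Col5a2* without M 1 or M 2 (−2.97 to −2.57) was not called either. *Col1a1* (−0.87) with library totals lost the call as well.

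The other matrix genes were also called in both directions. Of 44 tested glycoproteins, proteoglycans and crosslinking enzymes, 12 were called lower and 9 higher, with a median of −0.52. *Lama3* and *Lamb3* encode chains of the laminin that anchors epithelia to their basement membrane, and both were lower. *Lama3* fell from 529.7 and 602 to 59.7 and 61.3 ppm and *Lamb3* from 769 and 835 to 429 and 354 ppm. The lysyl oxidases *Loxl2* (−3.77) and *Loxl1* (−1.65) and the lysyl hydroxylases *Plod2* (−1.52) and *Plod3* (−1.13), which crosslink collagen or prepare it for crosslinking, fell, while *Loxl4* rose by 2.05. Small proteoglycans and fibulins were called in both directions. *Prelp* rose from 0.0958 and 0.170 to 27.0 and 27.5 ppm, *Fbln1* (fibulin 1) from 0 and 0.170 to 9.91 and 9.66 ppm, and osteoglycin *Ogn* from 11.2 and 8.45 to 232 and 188 ppm. Decorin, *Dcn*, was under the floor in both M libraries and at 3.79 and 1.74 ppm in RE, at least 38-fold higher, and biglycan *Bgn* rose by 1.68. Fibromodulin, *Fmod* (−2.79), and fibulin 2, *Fbln2* (−1.55), fell. *Fn1*, encoding fibronectin, was at 18203 and 17943 ppm in M and 11513 and 10501 ppm in RE, lower in both RE libraries but not called (−0.72, limma adjusted p = 0.167), and *Sparc* fell by 1.01. *Fbln2* (−1.65 to −1.45), *Lamb3* (−1.18 to −0.90), *Plod2* (−1.56 to −1.48), *Loxl4* (1.89 to 2.22) and *Sparc* (−1.04 to −0.97) were not called when any 1 of the 4 M and RE libraries was left out. *Fmod* without M 2, RE 1 or RE 2 (−3.05 to −2.22), *Loxl1* without M 1, M 2 or RE 1 (−1.66 to −1.32) and *Plod3* without M 1, M 2 or RE 1 (−1.13 to −1.08) were not called either. *Lamb3* (−0.84), *Plod3* (−0.92) and *Sparc* (−0.80) with library totals, *Loxl4* (2.05) without a filter and *Sparc* (−0.99) with median-of-ratios factors lost the call as well.

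Genes that cut the matrix were lower more often than those of any other list by count, with 16 of 34 tested proteases and inhibitors called lower and 5 higher, and a median of −1.12. Beside *Mmp9*, the stromelysin *Mmp10* fell from 19.4 and 15.8 to 0.169 and 0.242 ppm and the collagenase *Mmp13* from 18.0 and 12.4 to 0.657 and 0.501 ppm. The urokinase system moved with them. *Plau*, encoding urokinase, fell from 292 and 267 to 34.1 and 41.1 ppm (−2.90), its receptor *Plaur* from 88.7 and 85.4 to 31.8 and 43.0 ppm (−1.23) and the tissue activator *Plat* fell by 1.01. The inhibitors *Timp1* (−1.57) and *Serpinb5* (maspin, −1.40) fell, while *Timp2* (0.25) and *Timp3* (0.82) were not called. The metalloprotease *Mmp15*, which is anchored in the membrane, rose from 0.886 and 0.730 to 21.3 and 19.5 ppm, and gelatinase A, *Mmp2*, from 1.51 and 1.42 to 5.24 and 4.52 ppm (log2 fold change 1.67, limma adjusted p = 0.00127). The gelatinases *Mmp2* and *Mmp9* thus changed in opposite directions. *Mmp14*, which activates the product of *Mmp2*, was not called (−0.67). *Plat* (−1.19 to −0.82) and *Mmp2* (1.56 to 1.77) were not called when any 1 of the 4 M and RE libraries was left out. *Plaur* without M 1, M 2 or RE 1 (−1.26 to −1.01) and *Serpinb5* without M 2 or RE 2 (−1.33) were not called either. *Plat* (−0.99) with median-of-ratios factors, *Plat* (−0.80) with library totals, *Plat* (−1.01) without a filter, *Plat* (−0.93) with a pseudocount of 1, *Plat* (−0.97) after removal of the GC and length trend and *Plat* (−0.97) after removal of that trend with the block lost the call as well.

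The promoters of *Mmp10* and *Plaur*, both lower in RE cells, are shown because each holds a match to TGANTCA, the letters bound by AP-1 dimers of Fos and Jun proteins, which 7.93% of the promoters in the table hold on either strand. Each has 1 match, marked in capitals, that begins 63 bases before the annotated start in *Mmp10* and 69 bases before it in *Plaur*. On GRCm38.p6 the windows are chr9:7502092-7502391 for *Mmp10* and chr7:24462233-24462532 for *Plaur*, both on the plus strand.
Mmp10: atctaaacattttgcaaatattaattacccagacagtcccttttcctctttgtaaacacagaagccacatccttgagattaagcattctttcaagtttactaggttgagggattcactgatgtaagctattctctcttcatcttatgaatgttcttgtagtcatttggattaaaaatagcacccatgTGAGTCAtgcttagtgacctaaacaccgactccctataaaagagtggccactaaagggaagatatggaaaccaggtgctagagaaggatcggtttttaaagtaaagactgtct
Plaur: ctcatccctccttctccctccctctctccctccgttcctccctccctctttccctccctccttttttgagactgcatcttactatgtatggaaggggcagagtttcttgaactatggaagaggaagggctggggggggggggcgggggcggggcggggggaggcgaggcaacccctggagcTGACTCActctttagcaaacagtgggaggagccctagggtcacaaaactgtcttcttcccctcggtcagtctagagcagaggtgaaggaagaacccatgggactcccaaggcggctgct
The pair was picked for holding the motif, and no binding was measured.

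Integrins, the receptors for these matrix proteins, were lower more often than higher. Of 18 tested subunits, 8 were called lower and 3 higher, with a median of −0.73. *Itgb3*, the β3 subunit, was at 10.5 and 11.8 ppm in M and 0.0838 and 0.0678 ppm in RE, and *Itgav*, its αv partner in the vitronectin receptor, fell from 609.8 and 607 to 210.5 and 196 ppm. *Itgb6*, which pairs with αv to release TGFβ from its latent complex, fell by 1.76. The fibronectin receptor pair *Itga5* and *Itgb1* fell (−2.65 and −1.12). Of the 4 collagen-binding α subunits, *Itga2* and *Itga11* were lower (−6.02 and −2.99) and *Itga1* and *Itga10* higher (1.34 and 2.82). *Itgb8* rose by 2.49. The subunits of the hemidesmosomal laminin receptor, *Itga6* (0.40) and *Itgb4* (−0.43), were not called. *Itgav* (−1.63 to −1.53), *Itgb6* (−1.88 to −1.65), *Itgb1* (−1.17 to −1.08), *Itga1* (1.12 to 1.56) and *Itgb8* (2.11 to 2.86) were not called when any 1 of the 4 M and RE libraries was left out. *Itga11* without M 2 or RE 1 (−2.77 to −2.60) was not called either. *Itgb1* (−0.92) with library totals and *Itga1* (1.34) without a filter lost the call as well.

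Genes of defence proteins secreted by epithelia were either higher in RE cells or not called. Of 20 tested acute phase and mucosal genes, 11 were called higher and 0 lower by limma, where an unadjusted p under 0.05 was reached by 15 members in the higher and 0 in the lower direction. Beside *Hp*, *Lcn2*, the iron-sequestering lipocalin of mastitis and wounds, rose from 0.601 and 0.574 to 13.9 and 15.3 ppm, and *Steap4*, a metalloreductase, from 0.710 and 0.838 to 63.0 and 36.9 ppm. *Cp*, encoding the copper-carrying ferroxidase ceruloplasmin, rose from 524 and 390.1 to 3559.9 and 3188 ppm and the protease inhibitor *Slpi* from 19.8 and 25.7 to 114 and 119 ppm. The membrane mucin *Muc15* rose from 0.0479 and 0.0757 to 5.82 and 4.35 ppm, with only a few reads' worth in M. The interleukin-1 receptor antagonist *Il1rn* rose by 2.78, transglutaminase *Tgm2* by 1.83 and *Wfdc2* by 1.34. *Orm1* and *Orm2*, which encode near-identical α1-acid glycoproteins and may share reads, rose by 2.16 and 2.14. *Saa3* was not called (1.20). *Wfdc2* (1.31 to 1.37) and *Orm1* (1.98 to 2.34) were not called when any 1 of the 4 M and RE libraries was left out. *Orm2* without M 1, RE 1 or RE 2 (1.70 to 2.24) was not called either. *Orm1* (2.16) without a filter lost the call as well.

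Complement genes did not move as a list. Of 17 tested, 4 were called higher and 3 lower, with a median of −0.02. The lectin pathway protease *Masp1* rose by 4.09, *C1rl* by 3.56 and *C1s* by 1.22. *Clu*, encoding the chaperone and complement inhibitor clusterin, fell from 1439.9 and 1352 to 150.4 and 135 ppm, and factor I, *Cfi* (−2.26), and the C1 inhibitor *Serping1* (−1.55) fell as well. *C3* was at 664 and 715 ppm in M and 1147 and 1117 ppm in RE and was not called (0.72). *C1s* (1.0 to 1.44), *Cfi* (−2.43 to −2.09) and *Serping1* (−1.85 to −1.25) were not called when any 1 of the 4 M and RE libraries was left out. *Cfi* (−2.11) and *Serping1* (−1.36) with library totals, *Cfi* (−3.10) with a pseudocount of 0.025, *Cfi* (−0.63) and *Serping1* (−0.85) with a pseudocount of 1 and *Serping1* (−1.55) without a filter lost the call as well.

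Neutrophil-attracting chemokines were higher in RE cells. Of 32 tested chemokines and cytokines, 7 were called higher and 5 lower, with a median of 0.28. *Cxcl1* rose from 7.03 and 7.27 to 89.9 and 91.5 ppm, *Cxcl2* from 0.243 and 0.210 to 9.47 and 10.4 ppm and *Cxcl5* from 8.70 and 7.25 to 62.7 and 87.9 ppm, and *Cxcl3* rose by 2.72. All 4 encode ligands of the receptor CXCR2. The alarmin *Il33* was under the floor in M and at 3.29 and 1.79 ppm in RE, at least 34.9-fold higher. The falls included *Il11*, an IL-6 family cytokine induced by TGFβ, from 0.660 and 1.44 to 0.0212 and 0.0228 ppm, *Il24* from 29.2 and 25.6 to 3.27 and 4.46 ppm and *Cxcl12* (−1.37). *Il6* (0.29), *Ccl2* (−0.49), *Tnf* (−0.27) and *Cxcl10* (0.05) were not called. *Cxcl12* (−1.46 to −1.28) was not called when any 1 of the 4 M and RE libraries was left out. *Il11* without RE 1 or RE 2 (−3.16 to −3.14) was not called either. *Il11* (−0.98) with a pseudocount of 1, *Cxcl12* (−1.36) with median-of-ratios factors, *Cxcl12* (−1.17) with library totals, *Cxcl12* (−1.37) without a filter, *Cxcl12* (−1.37) with the minimum in every library and *Cxcl12* (−1.37) with the replicate block lost the call as well.

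A few feedback genes of NF-κB, the factor that drives many of these chemokines, were higher. Of 18 tested subunits and feedback inhibitors, 3 were called higher and 0 lower by limma, the median was −0.14, and 5 were lower at an unadjusted p under 0.05. *Nfkbiz*, encoding the nuclear IκBζ, rose from 31.2 and 36.3 to 316 and 311 ppm, the deubiquitinase *Tnfaip3* (A20) by 1.85 and *Nfkbia* (IκBα) by 1.14. The subunits *Rela* (−0.27), *Nfkb1* (0.06) and *Nfkb2* (−0.99) were not called. Of 42 tested interferon-stimulated genes, 8 were called higher and 2 lower, with a median of 0.26. *Ifit3* rose from 0.549 and 0.495 to 3.95 and 2.71 ppm, *Irf7* by 1.76 and *Ifit2* by 1.69, while *Ifi44* fell by 2.00. *Isg15* (0.86) and *B2m* (−0.63) were not called. *Tnfaip3* (1.77 to 1.94) and *Nfkbia* (1.13 to 1.14) were not called when any 1 of the 4 M and RE libraries was left out. *Irf7* without M 1, M 2 or RE 1 (1.54 to 1.77) and *Ifi44* without M 1, M 2 or RE 2 (−2.08 to −1.78) were not called either.

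Growth factor genes moved in both directions. Among 14 tested genes of the EGF family, the ligands *Areg* (amphiregulin) and *Hbegf* fell from 44.9 and 40.7 to 4.02 and 6.02 ppm and from 45.8 and 38.9 to 7.57 and 7.47 ppm, and the receptor *Erbb3* rose by 1.89. *Egfr* (−0.20) and *Erbb2* (0.12) were not called. Of 37 other growth factor ligands, receptors and modulators tested, 9 were called higher and 9 lower. The FGF ligands *Fgf7* and *Fgf1* rose by 2.75 and 2.33, as did their epithelial receptor *Fgfr2* (2.41). *Gas6*, the ligand of the receptor kinase Axl, rose from 44.1 and 42.8 to 879 and 718 ppm (log2 fold change 4.19, limma adjusted p = 1.68e-05), and *Kitl*, the stem cell factor, from 1.78 and 2.31 to 33.1 and 24.3 ppm. Among the ligands called lower were *Pdgfa*, at 313 and 283 ppm in M and 45.5 and 50.1 ppm in RE, *Edn1* (endothelin 1), at 20.9 and 17.4 ppm in M and 3.24 and 3.36 ppm in RE and *Vegfa*, at 259.9 and 233 ppm in M and 52.5 and 59.7 ppm in RE. *Hgf* (−3.82, from 1.31 and 1.32 to 0 and 0 ppm), *Igf1* (−2.59) and the receptor kinase gene *Ret* (−5.20) also fell. *Angpt1* rose and *Angpt2* was not called (−1.34). *Erbb3* without M 1, M 2 or RE 1 (1.79 to 1.90), *Fgf7* without RE 1 (2.63) and *Fgf1* without RE 1 (2.10) were not called.

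Genes of the Notch and Wnt pathways were called in both directions. Of 38 tested genes, 8 were called higher and 6 lower, with a median of 0.35. *Notch1* rose from 65.1 and 70.0 to 340.2 and 285 ppm and *Notch3* from 2.75 and 3.00 to 27.1 and 24.8 ppm, while *Notch4* fell from 16.3 and 20.7 to 0.964 and 1.13 ppm. The ligand *Dll1* rose by 1.86 and *Jag1* fell by 2.75. The Notch targets *Hes1* (0.002), *Hey1* (0.97) and *Nrarp* (−0.35) were not called. All 4 Wnt ligands that were called fell, *Wnt11* (−5.43), *Wnt9a* (−3.56), *Wnt7a* (−2.89) and *Wnt7b* (−1.62). Both Frizzled receptors that were called rose, *Fzd7* from 21.6 and 20.5 to 238 and 206 ppm and *Fzd8* by 1.06, together with *Lgr4* and *Lrp5*. *Axin2*, a common readout of canonical Wnt signalling, was not called (0.18). *Fzd8* (0.97 to 1.15) and *Lrp5* (1.13 to 1.17) were not called when any 1 of the 4 M and RE libraries was left out. *Jag1* without RE 2 (−2.64), *Wnt7a* without M 1, M 2 or RE 1 (−2.93 to −2.57) and *Wnt7b* without M 1, M 2 or RE 1 (−1.70 to −1.46) were not called either. *Fzd8* (0.97) with a pseudocount of 1 lost the call as well.

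Immediate early genes, which serum, growth factors and handling induce within minutes, were higher more often than lower. Of 21 tested, 8 were called higher and 0 lower by limma, with 3 lower at an unadjusted p under 0.05 and a median of 0.62. *Fos* was at 14.4 and 12.3 ppm in M and 60.3 and 51.7 ppm in RE, *Egr1* at 3.89 and 2.13 ppm in M and 8.6 and 9.07 ppm in RE and *Jun* at 49.5 and 46.7 ppm in M and 142 and 148 ppm in RE. *Egr2* and *Egr3* rose by 2.21 and 2.42, and the phosphatases *Dusp1* and *Dusp6*, which switch off MAP kinases, by 1.93 and 1.80. *Fosl1* (0.32), *Myc* (0.57) and *Atf3* (−0.53) were not called. The time between the last change of medium and lysis is not given in the sources used here, and its part in these values was not tested. Clock genes are also reset by serum. Of 17 tested clock and PAR bZIP genes, 6 were called higher and 0 lower by limma (1 lower at an unadjusted p under 0.05), with *Hlf* at 0.284 and 0.337 ppm in M and 35.1 and 46.0 ppm in RE, *Per2* rising by 1.63, *Per1* by 1.19, *Bhlhe41* by 2.00 and *Rora* by 1.83. The core activators *Clock* (0.09) and *Arntl* (0.06) and the reporter genes *Dbp* (0.01) and *Nr1d1* (−0.36) were not called. *Jun* (1.55 to 1.63), *Per2* (1.5 to 1.77) and *Bhlhe41* (1.76 to 2.24) were not called when any 1 of the 4 M and RE libraries was left out. *Egr1* without M 2, RE 1 or RE 2 (1.16 to 1.62), *Per1* without M 1, RE 1 or RE 2 (1.03 to 1.24) and *Rora* without M 1, RE 1 or RE 2 (1.71 to 1.84) were not called either. *Per2* (1.63) without a filter lost the call as well.

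Genes of DNA replication and mitosis were lower in RE cells by a small margin in nearly all cases, and 3 of them were called. Of 51 tested S-phase genes, 1 was called higher and 1 lower, the median was −0.63, and both RE libraries were below both M libraries for 45 of 51, against 40.2% of all genes tested. Of 47 tested G2 and mitosis genes, 0 were called higher by limma (0 at an unadjusted p under 0.05) and 1 lower, the median was −0.53, and 44 of 47 were lower in both RE libraries. With library totals in place of TMM the medians of these 2 lists were −0.43 and −0.32, beside a median of 0.18 over all genes. *Mcm5*, a subunit of the replicative helicase, was at 458 and 435 ppm in M and 242 and 292 ppm in RE (−0.75), and the ribonucleotide reductase gene *Rrm2* at 131 and 116 ppm in M and 59.7 and 73.3 ppm in RE (−0.90). *Top2a* was at 1819.9 and 1585 ppm in M and 876 and 989.9 ppm in RE (−0.87) and the proliferation marker *Mki67* at 1242 and 1228 ppm in M and 852 and 954 ppm in RE (−0.45). None of these 4 passed the fold threshold. The called members were *E2f2*, higher (2.06), *Cdc45l*, lower (−1.16), and *Gtse1*, lower (−1.06). Of 18 regulators, *Btg2*, an antiproliferative gene, was called higher (1.99), and *Ccnd1* (−0.93), *Cdkn1a* (−0.68) and *Cdkn1b* (0.48) were not called. *Cdc45l* (−1.27 to −1.06) and *Gtse1* (−1.25 to −0.87) were not called when any 1 of the 4 M and RE libraries was left out. *Btg2* without M 2 or RE 1 (1.84 to 1.88) was not called either. *Cdc45l* (−0.96) and *Gtse1* (−0.85) with library totals lost the call as well.

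Genes of enzymes that clear aldehydes and foreign compounds were either higher in RE cells or not called. Of 21 tested, 10 were called higher and 0 lower by limma, with 1 lower at an unadjusted p under 0.05 and a median of 1.74. Beside *Aldh3a1*, the glutathione transferase *Gstm1* rose from 2.90 and 2.64 to 27.6 and 28.4 ppm, *Gsta4* by 2.56 and *Gstt1* by 2.12. The mitochondrial aldehyde dehydrogenase *Aldh2* rose from 403 and 405 to 1772 and 1815 ppm and the epoxide hydrolase *Ephx1* by 1.82. *Akr1c18* was under the floor in M and at least 49.0-fold higher, and *Ugt1a10* rose by 4.94, although the *Ugt1a* genes share their last exons and their coverage cannot be assigned to 1 of them with certainty. *Nqo1* (1.03), *Hmox1* (0.13) and *Gclm* (−0.11), common targets of the oxidative stress factor Nrf2, were not called. *Gsta4* without M 1 or RE 2 (2.44 to 2.5) and *Gstt1* without M 2, RE 1 or RE 2 (1.93 to 2.16) were not called.

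Few genes of energy metabolism, translation or lipid synthesis were called. By limma, 0 of 48 tested nuclear genes of oxidative phosphorylation and 0 of 40 ribosomal protein genes were called, with medians of 0.03 and −0.15, and an unadjusted p under 0.05 was reached by 1 higher and 4 lower members of the first list and by 0 higher and 4 lower members of the second. Of 22 glycolysis genes, *Aldoc* (1.82) and *Pdk1* (1.47) were called higher, and *Gapdh* was at 7.90 and 7.92 ppm in M and 8.0 and 8.46 ppm in RE (0.06). Of 23 cholesterol synthesis genes, *Idi1* (1.43) and *Insig1* (1.12) were called higher, with a list median of 0.54. Of 32 genes of ER stress and the amino acid response, *Ddit3* (1.53), encoding CHOP, was called higher. The most stable genes of high coverage were *Tlk1* (−0.0042), *Taok2* (−0.01), *Sgta* (−0.05), *Stk11* (0.01), *Rnf11* (−0.10) and *Klhdc3* (−0.04). *Pdk1* (1.41 to 1.54), *Idi1* (1.37 to 1.5), *Insig1* (0.99 to 1.25) and *Ddit3* (1.44 to 1.63) were not called when any 1 of the 4 M and RE libraries was left out. *Aldoc* without M 1, M 2 or RE 1 (1.74 to 1.83) was not called either.

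Genes that mark mammary lineages moved in both directions. Of 20 tested, 6 were called higher and 6 lower. The hormone receptor genes *Prlr*, for prolactin, and *Esr1*, for oestrogen, rose, *Prlr* being under the floor in M and at 2.70 and 2.33 ppm in RE and *Esr1* rising by 2.31. *Stat5a*, which acts downstream of the prolactin receptor, rose by 2.10, and *Ly6a* (Sca-1) from 2.57 and 2.41 to 24.0 and 19.9 ppm. The alveolar factor *Elf5* and the milk protein gene *Csn3* (κ-casein, −2.21) fell. Of the genes used to sort mammary stem cells, *Cd44* fell from 447 and 455 to 127 and 131 ppm (−1.80) and *Procr* (−1.92) and *Itgb1* (−1.12) fell as well, while *Cd24a* (−0.18) and *Itga6* (0.40) were not called. *Esr1* (2.22 to 2.40), *Csn3* (−2.64 to −1.78) and *Cd44* (−1.82 to −1.79) were not called when any 1 of the 4 M and RE libraries was left out. *Csn3* (−0.53) with a pseudocount of 1 lost the call as well.

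Few markers of other cell types were tested, and the calls went in both directions. Of the 5 fibroblast markers tested, 4 were higher in both RE libraries than in both M libraries and 1 was lower in both. The shares over all genes tested were 37.9% and 40.2%. Of the fibroblast markers, *Dcn* and *Pdgfra* (1.41) were called higher and *Col1a1* lower among 5 of 8 tested, *Pdgfrb* (0.79) and *Col3a1* (0.23) were not called, and *Lum*, *Thy1* and *Fap* did not reach the filter, with the summed level of the listed markers at 1045 and 883 ppm in M and 1181 and 970.4 ppm in RE. Of the endothelial markers, *Cdh5* fell from 2.33 and 2.07 to 0.0423 and 0.0910 ppm, *Pecam1* was not called (−0.09), and the sum was at 2.60 and 2.5 ppm in M and 0.349 and 0.409 ppm in RE. The leukocyte markers summed to 58.7 and 61.4 ppm in M and 32.5 and 35.5 ppm in RE, with 3 of 8 tested, *Csf1r*, *Cd14* (0.08) and *Cd68* (−0.32). Of the adipocyte markers, *Fabp4* alone was tested and was higher in RE (2.22 and 1.87 ppm against 0.0561 and 0.0243 ppm in M), while *Adipoq*, *Plin1* and *Lep* did not reach the filter. The part of other cell types in the differences described was not tested. *Pdgfra* without M 1 or RE 1 (1.27 to 1.33) and *Fabp4* without RE 1 (3.82) were not called. *Fabp4* (1.55) with a pseudocount of 1 lost the call as well.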

How the data were processed

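Poly(A) RNA of EpH4 cells was sequenced in 6 libraries, 2 each of E, M and RE cells, with groups and replicate numbers taken from the sample titles. The labels speak of RNA from 3 biological replicas, whereas 2 libraries per group were analysed here. According to the authors' processing notes and methods, reads were aligned with Bowtie and TopHat2 to NCBI-m37 and DEGs were found with edgeR. Their versions, the step that summed reads per gene, the annotation and the strandedness are not given in the sources used here.

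The deposited table holds 1 value per gene and library, and these values were handled as coverage, that is, bases summed over a gene, as deposited by the authors without scaling to depth or gene length. Between 44.8% and 48.4% of the values from 1 to 400 in a library are multiples of the read length of 50 bases. The totals equal 35782513 to 47928557 reads of 50 bases. Since coverage is not a count of reads, edgeR was not run. A level of 150 bases, or 3 reads' worth (0.0635 to 0.0781 ppm), served as the floor for bounds, which cover counting error only.

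With R 4.3.3, library totals were scaled by unweighted TMM (trims of 30% and 5%), and a gene was kept when 2 or more libraries held 500 or more bases of it (10 reads' worth), which left 13893 of 17428. Values were log2(ppm + 0.1), so that fold changes of low genes are understated. All 6 libraries were fitted with group as the term in limma 3.58.1 (empirical Bayes with trend), and genes with a Benjamini-Hochberg adjusted p under 0.01 and a log2 fold change beyond 1 in either direction were called. The replicates are called biological, but whether they came from separate cultures is not given in the sources used here, and p-values measure the spread between these libraries. Tested on simulated data for M against RE with 13805 genes run, the fit recovered 175 of 197 genes changed by 2 on the log2 scale (88.8%). It called 0 of the unchanged genes. The simulated noise was independent, with the same SD for all genes of a group, and far fewer genes were changed than were called here. The simulation therefore checks the code and does not give the error rate in these data.

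The comparison, the gene lists and the tests were chosen with earlier results of these data known. Genes were named by rule, namely the 12 largest called changes in each direction averaging 2 or more on the log2 scale, the 6 smallest adjusted p-values in each direction, up to 4 called members per list and direction, members whose role is explained, the genes that the study assayed by PCR or staining, and the 6 stable genes with the narrowest confidence intervals among those averaging 5 or more whose change lay within 0.1 of 0. Promoters came from RefSeq on GRCm38.p6 and matched 74.3% of the tested genes. Shares of 6 motifs were counted by gene set. The match is under 80%, so that a comparison of these shares would be void and none is reported. GC content and length matched 93.4%. Alternatives covered the scaling, the filter, the pseudocount, the thresholds, array weights, a replicate block, M and RE alone, the GC and length trend and leaving out each library. Some genes that the rule would name are not reported here.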

Additional observations from a re-analysis of the deposited data

How the results depend on the processing

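No called gene was called in the opposite direction in any alternative. The number of called genes, 1789 as reported, was 1391 with the minimum in every library, 1471 and 1744 with pseudocounts of 1 and 0.025, 1622 without a filter, 1767 with median-of-ratios factors, 1905 with library totals, 2296 with a fold change of 1.5, 2313 with M and RE alone, 2316 with an adjusted p of 0.05 and 2420 with array weights. Removal of the GC and length trend, chosen after seeing the data, gave 1846 calls, and 1933 with the replicate block. The share of called genes that were higher in RE was 73.8% with library totals and 57.2% with a fold change of 1.5, against 62.8% as reported. The median log2 fold change was 0.18 with library totals and −0.0010 with median-of-ratios factors. The causes were not tested.

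Leaving out 1 library gave between 683 called genes (without RE 1) and 2322 (without E 2), with 421 to 1422 higher and 214 to 901 lower, a share higher of 61.1% to 71.0%, a median log2 fold change of −0.0226 to −0.0033 and 147 to 295 called list members. Fewer samples remain in these fits.

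Deviations of same-numbered libraries from their group means correlated at 0.267 for E and M, 0.116 for M and RE and 0.058 for E and RE. These values were set against no threshold, and whether replicate numbers pair the libraries was not tested. With the replicate block 1830 genes were called, 1745 of them among the 1789 and in the same direction, and *Cxcl12* lost its call among 330 genes followed.

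Precision is limited by 2 libraries per group and, for genes near the floor, by coverage of a few reads.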
